A study of Rattus norvegicus with 48 samples.

Results

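The striated muscle miRNAs (myomiRs) are 7 mature rat miRNAs, chosen by name as miRNAs of skeletal and heart muscle. They were rno-miR-1-3p, rno-miR-1b, rno-miR-206-3p, rno-miR-133a-3p, rno-miR-133b-3p, rno-miR-208b-3p and rno-miR-499-5p, out of 763 mature miRNAs listed for each library and 629 with at least 1 read. They were followed through 48 small RNA libraries from rats, 32 of serum and 16 of ulna bone. The comparisons asked how type 2 diabetes and its treatments bear on miRNAs in bone and in the circulation.

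All rats were male. ZDF fa/fa rats carry a homozygous leptin receptor mutation and model type 2 diabetes, and Zucker lean rats (ZDF +/+, called WT) were the non-diabetic control. Every animal, placebo-treated ones included, had a subcritical femoral defect made by surgery and a diet rich in fat and carbohydrate, and treatment started at 11 weeks of age and went on for 12 weeks. Placebo was water, PTH (parathyroid hormone) was given at 75 µg/kg, the anti-sclerostin antibody at 25 mg/kg and insulin at 0.5 to 13 IU. Sera were taken from 5 WT rats under placebo, 5 under PTH and 4 under anti-sclerostin. Of the ZDF sera, 5 were from placebo-treated, 5 from PTH-treated, 4 from antibody-treated and 4 from insulin-treated rats. Bone came from WT and ZDF rats under placebo or PTH (n = 4 in each of these groups). Frozen ulnae were ground and fragments of them lysed, and the methods name no step that took off attached muscle or marrow.

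MyomiRs are transcribed in skeletal and cardiac muscle fibers, several of them from introns of myosin heavy chain genes or from clusters that give a miR-1 and a miR-133 transcript together. They act in muscle differentiation, proliferation and fiber type. MiR-1 and miR-133 are shared by skeletal muscle and heart, miR-206 and miR-133b belong mainly to skeletal muscle, and miR-208b and miR-499 lie within slow myosin genes. Muscle damage is known to release them into blood.

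The mature sequences sort the members into families by the seed, the bases that pair with target mRNAs, and show which members the mapping could confuse. All 7 were found in RefSeq for rat (build GRCr8), from which sequences and positions were taken. They are written 5′ to 3′ with the seed (bases 2 to 8) in capitals. The first family shares one seed in all of its members:
rno-miR-1-3p: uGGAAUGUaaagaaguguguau
rno-miR-1b: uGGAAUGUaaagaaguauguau
rno-miR-206-3p: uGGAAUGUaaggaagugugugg

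The miR-133 pair has another seed:
rno-miR-133a-3p: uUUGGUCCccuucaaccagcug
rno-miR-133b-3p: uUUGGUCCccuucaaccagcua

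The members encoded in slow myosin genes have seeds of their own that differ in the last base:
rno-miR-208b-3p: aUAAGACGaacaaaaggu
rno-miR-499-5p: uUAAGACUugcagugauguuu

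Counted from the 5′ end, rno-miR-1b differed from rno-miR-1-3p by G17A alone, and rno-miR-133b-3p from rno-miR-133a-3p by G22A alone. Since 1 mismatch was allowed in the mapping, a read of one miRNA in such a pair could be counted on the other, and the split within each pair is uncertain. Rno-miR-206-3p differed from rno-miR-1-3p at A11G, A21G and U22G, more than the mapping allowed for a full-length read. A read short of the last bases would differ at A11G alone, which the mapping allowed.

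Rno-miR-1-3p (Mir1) lay at chr18:2160339-2160360 and rno-miR-133a-3p (Mir133a1) at chr18:2157886-2157907, both on the minus strand within the span of Mib1 and 2453 bases apart. Rno-miR-206-3p (Mir206, chr9:30590747-30590768) and rno-miR-133b-3p (Mir133b, chr9:30594629-30594650) lay 3882 bases apart on the plus strand, within the span of LOC120094648. Rno-miR-1b (Mir1b) was at chr3:187864736-187864757 on the plus strand. Rno-miR-208b-3p (Mir208b, chr15:32421648-32421665, minus strand) lay within Myh7, a slow myosin heavy chain gene, and rno-miR-499-5p (Mir499a, chr3:164570616-164570636, plus strand) within Myh7b.

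Bone libraries held 41627 to 1398702 miRNA reads (median 237032) and serum libraries 28015 to 205664 (median 86229). The WT PTH bones were shallow, with 41627 to 282285 miRNA reads against 195045 to 952131 in WT placebo bones, and miRNAs made up 1.58 to 7.23% of all their reads against 5.06 to 14.8%. Levels are given as CPM, counts per 1000000 miRNA reads, after TMM normalization within the tissue. They compare libraries, and since mature miRNAs are of nearly the same length, no further scaling by length was made between members.

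The members took 5.92 to 34.8% of the miRNA reads of a bone library (median 12.6%) and 0.0139 to 4.77% of those of a serum library (median 0.585%). In bone all 7 were read in all 16 libraries. Rno-miR-133a-3p, which acts in the proliferation of muscle precursors, ranked 1st of 603 miRNAs detected in bone by mean CPM, with 1810 to 463198 reads. Rno-miR-1b ranked 23rd, rno-miR-1-3p 47th, rno-miR-133b-3p 58th, rno-miR-206-3p 90th, rno-miR-208b-3p 154th and rno-miR-499-5p 162nd. The lowest of them, rno-miR-499-5p, had 3 to 348 reads in a bone library (median 24). In serum, rno-miR-133a-3p was read in all 32 libraries (17 to 4787 reads) and ranked 24th of 534. The remaining members had medians of 0 to 5.5 reads there. Rno-miR-206-3p had a read in 8 of 32 sera and at most 8 reads, and 0 reads in a serum allow a level of up to 14.6 to 107 CPM without TMM, depending on its depth (3 reads of the total, for counting error only).

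Skeletal muscle markers were thus present in every bone, while the other heart miRNA, rno-miR-208a-3p, which lies within Myh6, the gene of the alpha cardiac myosin heavy chain, had at most 2 reads in 1 of 16 bones. It was read in 17 of 32 sera, with at most 14 reads. In whole bone, fewer muscle fibers and less miRNA per fiber cannot be told apart.

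In bones of placebo-treated rats the miR-1 family was higher in ZDF than in WT rats. Rno-miR-1-3p, rno-miR-1b and rno-miR-206-3p all rose, to about the same degree, and no bone of one genotype reached into the range of the other. The miR-133 pair and rno-miR-499-5p did not pass the test. Of 235 miRNAs tested, 2.55% were called at FDR < 0.2 (6 miRNAs) and 2.13% called as higher in ZDF (5 miRNAs). Of the 5 called as higher, 3 belonged to this family. Rno-miR-1-3p and rno-miR-1b may share reads, so these calls are not independent. Groups did not overlap for 8.51% of the miRNAs tested, and 16 of these miRNAs were higher in ZDF.

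Rno-miR-1-3p, which acts in muscle differentiation, stood at 1298, 1637, 944 and 1823 CPM in the WT bones and at 3451, 3658, 2432 and 4012 CPM in the ZDF bones. The lowest ZDF bone thus lay above the highest WT bone. The mean of 3388 ± 678 CPM (SD, n = 4) in ZDF rats stood against 1425 ± 388 CPM (SD, n = 4) in the control, a log2FC of 1.23 (SE 0.28, FDR = 0.199 by edgeR's quasi-likelihood test with Benjamini-Hochberg adjustment).

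Rno-miR-1b measured 5672, 3015, 1979 and 3923 CPM in WT bones and 8375, 10233, 5908 and 9910.1 CPM in ZDF bones. Again the groups were apart, although the first WT bone came close to the third ZDF bone. The log2FC was 1.21 (SE 0.34, edgeR FDR = 0.199).

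Rno-miR-206-3p, the skeletal muscle member of the family, gave 259, 395, 170.3 and 419 CPM in WT bones and 684, 652, 605 and 836 CPM in ZDF bones. Its ZDF values were the most even of the family, at 694 ± 100.0 (SD, n = 4) against 311 ± 117 (SD, n = 4) in WT rats. The log2FC was 1.16 (SE 0.32, edgeR FDR = 0.199). For each of these miRNAs the exact permutation test gave two-sided p = 0.0286, the smallest value that 4 bones against 4 allow.

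Rno-miR-208b-3p, the miRNA of slow and fetal cardiac myosin, had 149, 41.4, 92.4 and 187 CPM in WT bones and 189.8, 343, 230.0 and 178 CPM in ZDF bones. The lowest ZDF bone lay under the highest WT bone, and the log2FC of 0.99 (SE 0.43, edgeR FDR = 0.274) missed the threshold (exact permutation p = 0.0571). The log2FC was −0.26 (SE 0.67) for rno-miR-133a-3p, −0.25 (SE 0.69) for rno-miR-133b-3p and 0.18 (SE 0.46) for rno-miR-499-5p, each at an edgeR FDR of 0.919. Their standard errors exceeded those of the miR-1 family. Without ZDF placebo bone 2, the log2FC of rno-miR-133b-3p was −1.45 and it was called lower in ZDF (FDR = 0.107), and without WT placebo bone 1 rno-miR-208b-3p was called higher (log2FC 1.14, FDR = 0.122). The median log2FC of the 7 members was 0.99, beside −0.05 over all miRNAs tested.

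The calls of the miR-1 family sat at the edge of the threshold. When a single bone was left out, none of them was called without WT placebo bone 2 or 3 or without ZDF placebo bone 1, 3 or 4, at a highest FDR of 0.486, while the log2FC of rno-miR-1-3p stayed between 1.05 and 1.31. They were also lost, with 0 members called, when all reads of the library set the scale, when miRNAs with as little as 1 read were kept, when all bone groups shared one fit and when robust fitting was used.

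Markers of other cells went in different directions between the same bones, and few were called. The osteoblast and fibroblast miRNAs (rno-miR-199a-3p, rno-miR-199a-5p and rno-miR-214-3p) summed to 23039.6 to 45003.6 CPM in WT and to 13634 to 17659 CPM in ZDF bones, with 1 of 3 called lower. The 4 leukocyte miRNAs summed to 5833 to 8289 CPM in WT and to 4125 to 5209.9 CPM in ZDF bones, with 0 of 4 called by edgeR. The endothelial miRNAs (rno-miR-126a-3p and rno-miR-126a-5p) tended the other way, at 18108.5 to 22773 CPM in WT and 22323 to 42953 CPM in ZDF bones. The erythrocyte miRNAs overlapped, at 3318 to 8517 CPM in WT and 5099 to 6991 CPM in ZDF bones. On the endothelial, erythrocyte, smooth muscle and cartilage lists 0 miRNAs were called. None of these markers was at 0 in any bone, and their part in the rise of the miR-1 family was not tested.

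**Figure D1:**
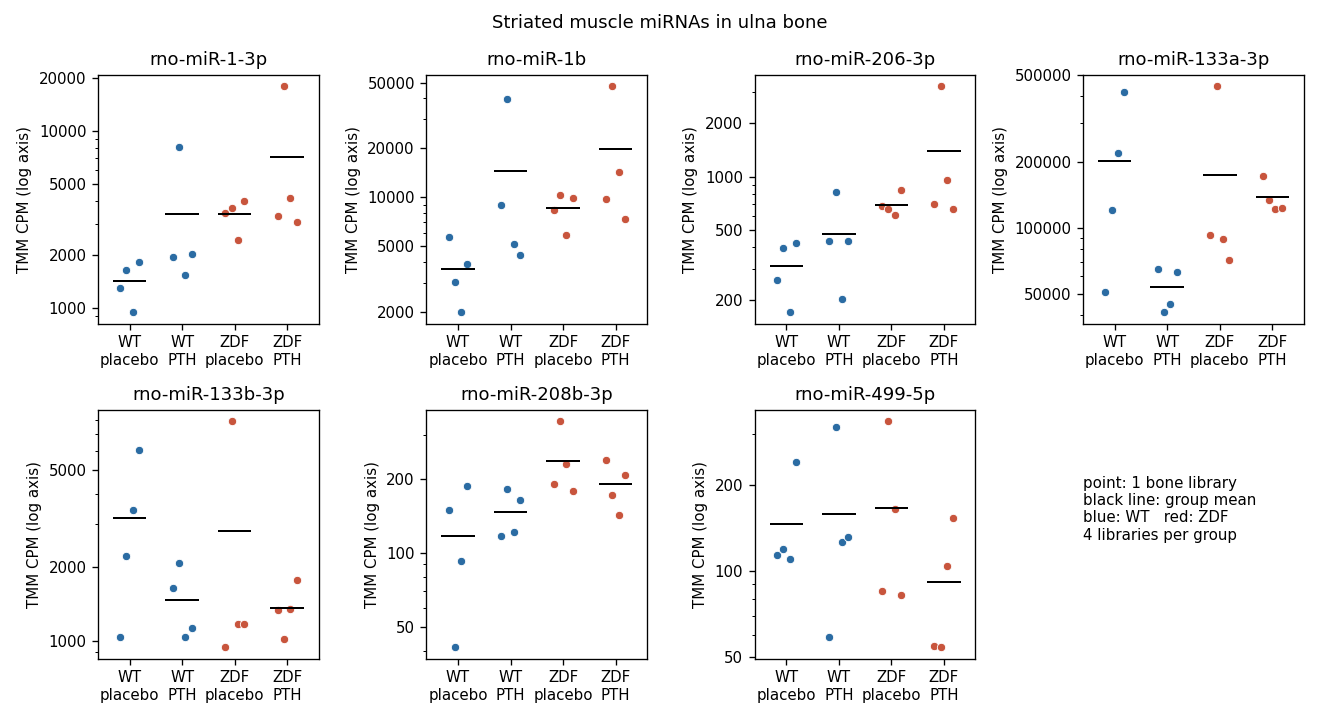
Levels of the 7 striated muscle miRNAs in ulna bone, in TMM CPM on a log axis, 1 panel per miRNA, with 1 point per library, 4 libraries per group, the group mean as a black line, WT in blue and ZDF in red. The placebo ZDF points of rno-miR-1-3p, rno-miR-1b and rno-miR-206-3p lie above all placebo WT points, while rno-miR-133a-3p spreads from 50977 to 416228 CPM over the WT placebo bones and from 41088 to 64995 CPM over the WT PTH bones.

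Between PTH-treated rats, rno-miR-133a-3p was the only member called between ZDF and WT bones, and it was higher in ZDF. The miR-1 family did not pass the test there, and 1 bone in each group held far more of it than the rest. Of 214 miRNAs tested, 3.27% were called, 2.8% as higher in ZDF, and 7.48% had groups that did not overlap. The WT PTH bones were shallower here too, with 41627 to 282285 miRNA reads against 191926 to 971036 in ZDF PTH bones. MiRNAs made up 1.58 to 7.23% of their reads against 6.79 to 12.55%. The part of this difference in the call was not tested.

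Rno-miR-133a-3p stood at 64995, 41088, 45098 and 62549.8 CPM in WT PTH bones and at 172264, 133777, 122503 and 122933 CPM in ZDF PTH bones. All ZDF bones lay above all WT bones. It took 4.35 to 6.76% of miRNA reads in the WT and 11.1 to 17.1% in the ZDF bones. The log2FC was 1.30 (SE 0.28, edgeR FDR = 0.0354), with an exact permutation p of 0.0286, the smallest possible. Without any single bone it remained called, at a log2FC of at least 1.13 and an FDR of 0.0199 to 0.178. In a fit over all bone groups its FDR was 0.236, while rno-miR-206-3p was called (FDR = 0.186).

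The near-identical rno-miR-133b-3p did not pass the test, with 1645, 2088, 1039 and 1128 CPM in WT PTH bones and 1335, 1019, 1356 and 1777 CPM in ZDF PTH bones. The groups overlapped almost completely, and the log2FC was −0.28 (SE 0.44, edgeR FDR = 0.785). Reads of rno-miR-133b-3p made up 1.80 to 5.08% of those of rno-miR-133a-3p in WT PTH bones and 0.762 to 1.45% in ZDF PTH bones. These shares did not overlap, with an exact permutation p of 0.0286, or 0.229 after Benjamini-Hochberg adjustment over 8 such tests. The opposite arm of the precursor, rno-miR-133a-5p, had 22 to 1275 reads in bone and a log2FC of 0.47 (SE 0.58, edgeR FDR = 0.690).

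For the miR-1 family, WT PTH bone 2 and ZDF PTH bone 2 stood apart from the others of their groups. Rno-miR-1-3p had 1938, 8104, 1529 and 2024 CPM in WT PTH bones and 3296, 17944, 4189.6 and 3066 CPM in ZDF PTH bones. In both groups the second bone held several times the level of the others. Rno-miR-1b followed with 8966, 39521, 5152 and 4451 CPM in WT and 9680.2, 47541, 14253 and 7310.3 CPM in ZDF PTH bones.

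Rno-miR-206-3p had 431, 817, 203 and 433 CPM in WT PTH bones and 702, 3252, 957 and 658 CPM in ZDF PTH bones. Apart from WT PTH bone 2, every WT bone lay under every ZDF bone. Its log2FC between genotypes was 1.40 (SE 0.66, edgeR FDR = 0.317), and it was called without ZDF PTH bone 4 (FDR = 0.189) and in 5 of 10 settings that kept all bones (log2FC up to 2.59). The log2FC was 0.76 (SE 0.76, FDR = 0.651) for rno-miR-1-3p and 0.07 (SE 0.82, FDR = 0.980) for rno-miR-1b. It was 0.34 (SE 0.41, edgeR FDR = 0.690) for rno-miR-208b-3p and −0.86 (SE 0.58, edgeR FDR = 0.469) for rno-miR-499-5p. When all reads of the library set the scale, which moved the median of all miRNAs by 1.02, the miR-1 family and rno-miR-133a-3p were all called, 4 members in all.

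In WT bones, PTH went with a lower level of rno-miR-133a-3p and with no call for any other member. Of 222 miRNAs tested, 5.41% were called, all 12 of them lower under PTH, and 2.25% had groups that did not overlap. The WT placebo bones are shared with the genotype comparison above.

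Rno-miR-133a-3p stood at 50977, 120963, 220267 and 416228 CPM in WT placebo bones, an 8.17-fold range within 1 group, while the WT PTH bones had 41088 to 64995 CPM. The first placebo bone fell within the PTH range, and the other placebo bones lay above it. In shares of miRNA reads the placebo bones held 5.96, 12.8, 23.6 and 32.3%. The mean was 202109 ± 158748 CPM (SD, n = 4) under placebo and 53433 ± 12092 CPM (SD, n = 4) under PTH, a log2FC of −1.83 (SE 0.53, edgeR FDR = 0.139), with an exact permutation p of 0.0857. The call was lost without WT placebo bone 2, 3 or 4 and without WT PTH bone 1 or 2 (highest FDR 0.474), while without WT placebo bone 1 the FDR was 0.00818.

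The other members moved in both directions without passing the test. The log2FC was 2.30 (SE 0.79, edgeR FDR = 0.210) for rno-miR-1b, 1.53 (SE 0.64, FDR = 0.246) for rno-miR-1-3p and 0.75 (SE 0.53, FDR = 0.495) for rno-miR-206-3p, with the single high bone in the PTH group. It was −0.95 (SE 0.55, FDR = 0.447) for rno-miR-133b-3p, 0.34 (SE 0.52) for rno-miR-208b-3p and 0.16 (SE 0.56) for rno-miR-499-5p. Rno-miR-1b was called, as higher, under 8 of the 9 alternative settings that kept all bones, and rno-miR-1-3p under 3 of them. When all reads of the library set the scale, the median of all miRNAs moved to −1.23, rno-miR-1-3p turned to −0.58 and rno-miR-206-3p to −1.05.

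Rno-miR-133a-5p, of the same precursor as rno-miR-133a-3p, differed by −0.08 (SE 0.59, edgeR FDR = 0.957) between PTH and placebo in WT bones. The 3p arm had 93.8, 312, 726 and 754 reads per read of the 5p arm in the WT placebo bones and 85.1, 82.3, 249 and 424 in the WT PTH bones. The smooth muscle miRNAs (rno-miR-143-3p, rno-miR-145-5p and rno-miR-145-3p) summed to 34167 to 120355.2 CPM under placebo and to 77047 to 264323 CPM under PTH, with 0 of 3 called. Of the osteoblast and fibroblast miRNAs (23039.6 to 45003.6 CPM under placebo and 19286 to 27858 CPM under PTH) 1 of 3 was called lower. Of the leukocyte miRNAs (5833 to 8289 CPM and 4162 to 7208.5 CPM) 1 of 4 was called lower, rno-miR-150-5p with a log2FC of −1.76 (edgeR FDR = 0.139). The list was mixed, since 2 of the 4 had a log2FC above 0. Its median log2FC was 0.12, beside −0.06 over all miRNAs tested. On the endothelial, erythrocyte and cartilage lists 0 miRNAs were called. The part of these cells, and of the lower depth of the PTH bones, in the level of rno-miR-133a-3p was not tested.

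In ZDF bones 0 members were called between PTH and placebo, as of all 215 miRNAs tested (0%), where 13 had an unadjusted p under 0.05 and 2.79% had groups that did not overlap. Among the members 1 (rno-miR-1b) had an unadjusted p under 0.05, and DESeq2 called 0. Placebo-treated ZDF bones held 92522, 444337, 88934 and 70998 CPM of rno-miR-133a-3p, so that the second bone lay far above the others and above all ZDF PTH bones. The log2FC was −0.28 (SE 0.48, edgeR FDR = 0.924). The log2FC was 1.04 (SE 0.53) for rno-miR-1-3p, 1.17 (SE 0.52) for rno-miR-1b and 0.96 (SE 0.50) for rno-miR-206-3p, each at an FDR of 0.678. It was −0.97 (SE 0.57) for rno-miR-133b-3p and −0.89 (SE 0.49) for rno-miR-499-5p, at the same edgeR FDR of 0.678. For rno-miR-208b-3p it was −0.35 (SE 0.31, edgeR FDR = 0.750). Without ZDF PTH bone 4, rno-miR-1b was called (log2FC 1.45, FDR = 0.155).

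The PTH response itself was compared between the genotypes by an interaction term over 243 miRNAs. It called 0%, with 13 miRNAs at an unadjusted p under 0.05, and DESeq2 called 0 members. For rno-miR-133a-3p the difference in response, ZDF minus WT, was 1.58 on the log2 scale (SE 0.75, adjusted p = 0.747 by edgeR), and it was 1 of those 13. It was called without WT placebo bone 1 (FDR = 0.117), without ZDF placebo bone 2 (FDR = 0.0651) and without both bones in which rno-miR-133a-3p took its largest share of miRNA reads (2.05, FDR = 0.182). The remaining members had FDR values of 0.753 to 0.992.

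**Figure D2:**
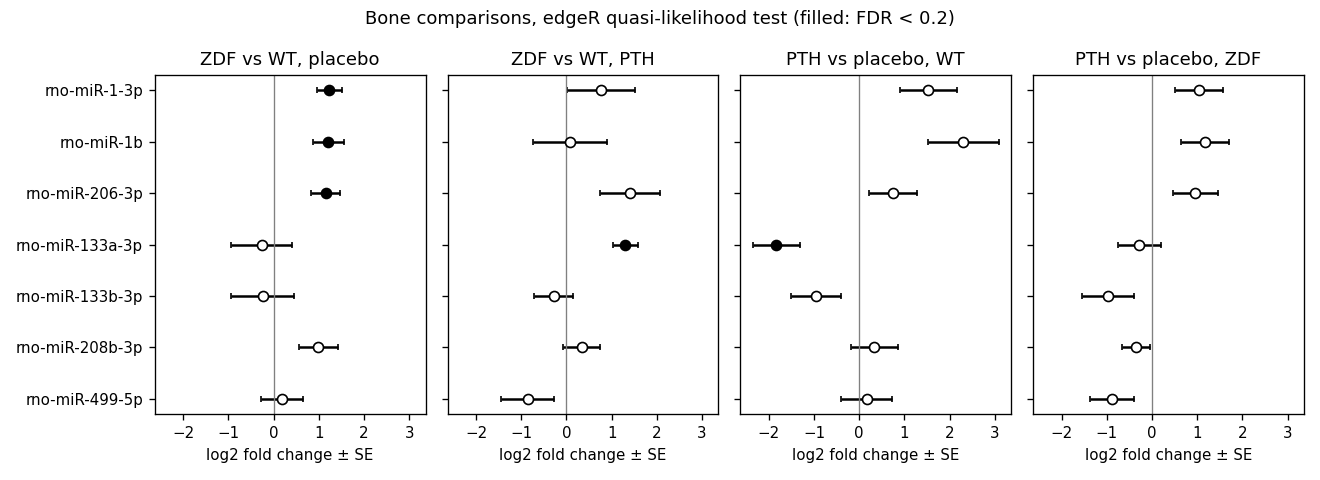
Log2 fold changes of the 7 members in the 4 bone comparisons, as points with standard errors, filled where edgeR's FDR was under 0.2. Filled points are rno-miR-1-3p, rno-miR-1b and rno-miR-206-3p for ZDF against WT under placebo (1.16 to 1.23), rno-miR-133a-3p for ZDF against WT under PTH (1.30) and rno-miR-133a-3p for PTH against placebo in WT rats (−1.83), and no point is filled for PTH against placebo in ZDF rats.

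Between bones of the same group the members of the miR-1 family moved together. Over the 16 bones, as deviations from the group mean of log2(CPM + 1), rno-miR-206-3p followed rno-miR-1-3p with Pearson's r = 0.930 (permutation p = 4e-05) and Spearman's rho = 0.906 (permutation p = 1e-05). Without the 2 bones farthest from the median r was 0.877. Rno-miR-1b followed rno-miR-1-3p with r = 0.918 (permutation p = 0.00208) and rho = 0.8294 (permutation p = 0.00194), and with r = 0.603 without those 2 bones. After Benjamini-Hochberg adjustment over the 6 members compared, the p-values of r were 2.4e-04 and 0.00624. Rno-miR-1-3p and rno-miR-1b may share reads. Over its full length rno-miR-206-3p differs by more bases than the mapping allowed, but shorter reads could be shared with it as well.

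No such relation was detected between rno-miR-133a-3p and rno-miR-1-3p, which are encoded side by side on chromosome 18. The r was −0.02 (permutation p = 0.912) and rho −0.12 (permutation p = 0.626), and without the 2 farthest bones r was 0.21. Scaled to total miRNA reads without TMM, r was −0.27 (permutation p = 0.0604), rho −0.46 (permutation p = 0.0355, adjusted p = 0.0710) and r without those bones −0.51. For rno-miR-133b-3p, rno-miR-208b-3p and rno-miR-499-5p r lay between 0.07 and 0.17, with adjusted p-values of at least 0.892. Rno-miR-208b-3p and rno-miR-499-5p were not compared with rno-miR-133a-3p. Rno-miR-133b-3p instead followed rno-miR-133a-3p, with r = 0.886 (permutation p = 0.00983) and rho = 0.753 (permutation p = 0.0254), and with r = 0.606 without the 2 farthest bones. This pair may share reads. By rho, rno-miR-484 (0.785) and rno-miR-378a-5p (0.779), both outside the set, were more like rno-miR-133a-3p than rno-miR-133b-3p was.

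Depth moved with rno-miR-133a-3p as well. Its deviations had r = 0.633 with those of the miRNA reads on other miRNAs (permutation p = 0.0110, adjusted p = 0.0771 over 7 members) and rho = 0.641 (permutation p = 0.0122), and r = 0.384 without the 2 farthest bones. For rno-miR-1-3p this r was −0.32 and for rno-miR-1b −0.50, with adjusted p-values of 0.311 and 0.195. The part of depth in the bone comparisons was not tested.

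**Figure D3:**
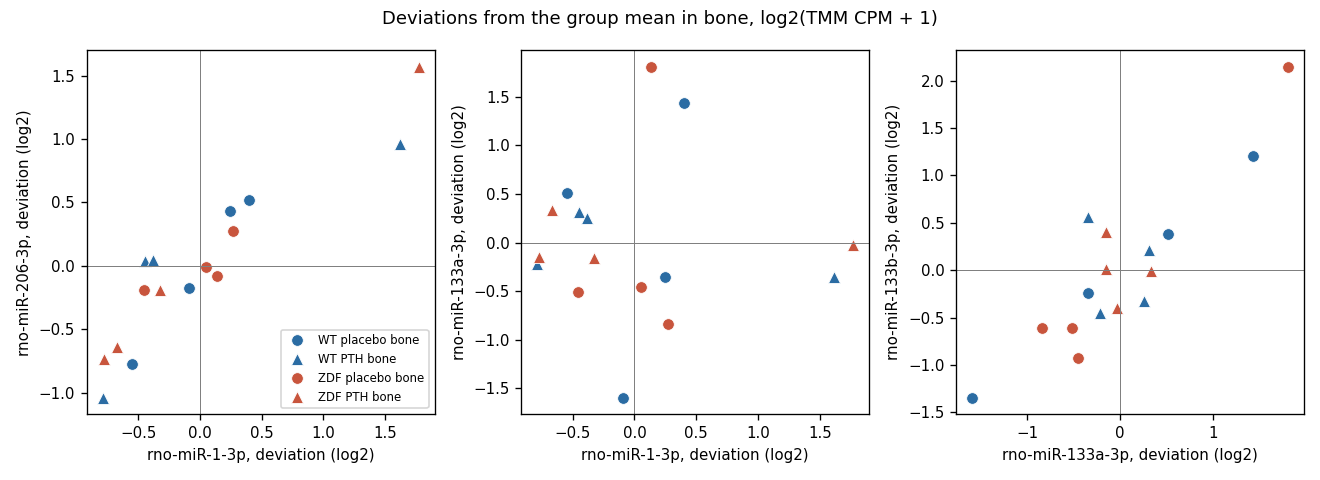
Deviations of single bones from their group mean, on the log2(CPM + 1) scale, for rno-miR-206-3p against rno-miR-1-3p (left), rno-miR-133a-3p against rno-miR-1-3p (middle) and rno-miR-133b-3p against rno-miR-133a-3p (right), with 1 point per library, WT in blue, ZDF in red, circles for placebo and triangles for PTH. The points lie along a rising line in the left and right panels (r = 0.930 and 0.886) and form none in the middle panel (r = −0.02).

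In bone the balance within the miR-1 pair was steadier than the levels, and that within the miR-133 pair less clearly so. Levels ranged 19.0-fold for rno-miR-1-3p, 10.8-fold for rno-miR-133a-3p and 8.42-fold for rno-miR-133b-3p. Rno-miR-1b had 1.84 to 4.88 reads per read of rno-miR-1-3p in bone (median 2.56) and exceeded it in 16 of 16 libraries. In serum the median was 1.5 over the 27 libraries with a read of rno-miR-1-3p. Reads of rno-miR-133b-3p were 0.762 to 5.08% of those of rno-miR-133a-3p in bone (median 1.61%) and had a median of 1.24% in serum. Between bone groups the ratio of rno-miR-1b to rno-miR-1-3p passed the test in 0 of 4 comparisons (exact permutation p of 0.171 to 1). For the miR-133 pair the exact permutation p was 0.0286, between genotypes under PTH, to 0.257. The miRNAs of each pair may share reads, and the part of such sharing in the ratios was not tested.

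By Spearman's rho over the same deviations, the miRNAs outside the set most like rno-miR-1-3p in bone were rno-miR-28-3p (0.741), rno-miR-30c-2-3p (0.641), rno-miR-7a-5p (0.609), rno-miR-486 (0.594) and rno-miR-30a-3p (0.591), among 215 candidates with a median of at least 10 reads. This is a description over 16 libraries, which share their depth and scaling. The best of them lay under both other members of the miR-1 family.

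Bone held far more of most members than serum in placebo-treated rats. In WT rats 5 of 7 members were higher in bone, where 80.6% of 222 miRNAs were called in either direction, 41.9% as higher in bone, and 60.8% had tissues that did not overlap. In ZDF rats 6 of 6 tested members were higher, where 86.1% of 202 were called, 46% as higher in bone, and 67.3% did not overlap. Members with few serum reads passed the filter through their bone reads, so the direction of their calls was largely set in advance. In ZDF placebo sera rno-miR-1-3p had 1 to 13 reads, rno-miR-206-3p 0 to 2 and rno-miR-133b-3p 2 to 11. By the paper, all placebo bones came from rats that also gave serum. No label links the 2 samples of a rat, so the fit ignored this pairing and took them as independent.

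Scaled to miRNA reads alone (CPM without TMM), rno-miR-133a-3p averaged 186609 ± 116483 (SD, n = 4) in WT bone and 14970.3 ± 15942 (SD, n = 5) in WT serum, a log2FC of 3.54 (SE 0.81, edgeR FDR = 0.00113). In ZDF rats it averaged 154535 ± 119017.5 (SD, n = 4) in bone and 4863 ± 4059 (SD, n = 5) in serum, a log2FC of 5.11 (SE 0.68, edgeR FDR = 5.52e-06). Bone and serum did not overlap in either genotype. When all reads of the library set the scale, the median of all miRNAs moved to 2.57 in WT and 3.10 in ZDF rats, rno-miR-133a-3p to 6.50 and 8.73, and all 7 members were called in WT rats, where 170 of all 192 called miRNAs were then higher in bone (155 of 169 in ZDF rats).

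Rno-miR-1-3p was higher in bone by 3.83 on the log2 scale (SE 0.64) in WT and by 6.05 (SE 0.52) in ZDF rats, rno-miR-1b by 4.28 (SE 0.68) and 6.41 (SE 0.56), and rno-miR-133b-3p by 3.40 (SE 0.83) and 5.43 (SE 0.71). All of these passed edgeR's test, at FDR values of 7.72e-08 to 0.00185. Rno-miR-206-3p had 0 to 4 reads in a WT placebo serum and 0 to 2 in a ZDF placebo serum. Its bone mean was 307 ± 96.1 (SD, n = 4) CPM in WT and 716 ± 167 (SD, n = 4) in ZDF rats.

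The members of slow myosin genes were not called in WT rats. Rno-miR-208b-3p averaged 116 ± 57.0 (SD, n = 4) in WT bone and 108 ± 144 (SD, n = 5) in WT serum, and its log2FC of −0.08 (SE 0.82, edgeR FDR = 0.928) was within its error. It was called as higher in bone without WT placebo serum 5 (1.32, FDR = 0.147) and under the scale of all library reads (2.58, FDR = 0.00295). In ZDF rats it averaged 235 ± 53.7 (SD, n = 4) in bone and 88.6 ± 95.5 (SD, n = 5) in serum (log2FC 1.38, SE 0.63, edgeR FDR = 0.0587). Rno-miR-499-5p had a log2FC of 0.43 (SE 0.81, edgeR FDR = 0.642) in WT rats, and was called there without WT placebo serum 5 (1.28, FDR = 0.189) and with all library reads (3.28, FDR = 5.01e-04). In ZDF rats it averaged 160 ± 84.8 CPM (SD, n = 4) in bone and 18.0 ± 23.2 CPM (SD, n = 5) in serum, without overlap (exact permutation p = 0.0159). The filter kept it out of the test, and the 3 settings that tested it with all libraries called it (log2FC 2.98 to 3.11).

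**Figure D4:**
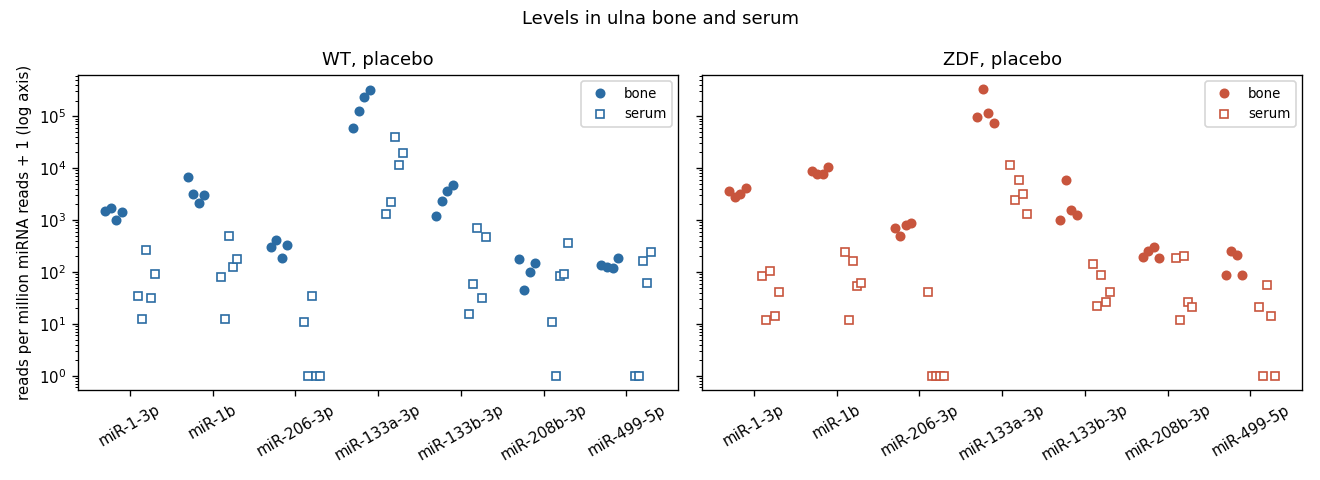
Levels of the 7 members in ulna bone (filled circles) and serum (open squares) of placebo-treated WT (left, blue) and ZDF (right, red) rats, as CPM without TMM plus 1 on a log axis, with 1 point per library. Bone points of rno-miR-1-3p, rno-miR-1b, rno-miR-206-3p, rno-miR-133a-3p and rno-miR-133b-3p lie above all serum points in both genotypes, and those of rno-miR-208b-3p overlap with serum.

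In serum rno-miR-133a-3p was the member with enough reads to follow in every library, and it varied from 117 to 44371 CPM, a 378-fold range. Group means ran from 14961 ± 17427 CPM (SD, n = 5) in WT PTH and 14192 ± 15369.6 (SD, n = 5) in WT placebo over 8419.8 ± 9199 (SD, n = 5) in ZDF PTH and 7416 ± 4512 (SD, n = 4) in WT anti-sclerostin to 5596 ± 7956 (SD, n = 4) in ZDF anti-sclerostin, 4639 ± 3731 (SD, n = 5) in ZDF placebo and 3998 ± 2861 (SD, n = 4) in ZDF insulin sera. Neighbours in this order differed by less than their SDs. All 7 groups overlapped.

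Placebo sera of WT rats held 1329.9, 1928, 38251, 9744 and 19709.5 CPM of rno-miR-133a-3p and those of ZDF rats 10653, 2449, 5551, 3425 and 1117 CPM. Some WT sera lay within the ZDF range, and WT sera 3 and 5 lay above it. The log2FC was −1.64 (SE 0.72, unadjusted p = 0.0363, edgeR FDR = 0.384), where 6.1% of 164 miRNAs were called. Rno-miR-1b, the only other member that could be tested, had a log2FC of −0.79 (SE 0.72, edgeR FDR = 0.713). With 0 of 2 members called and 1 at an unadjusted p under 0.05, DESeq2 called 1 (rno-miR-133b-3p). Rno-miR-133a-3p was called without WT placebo serum 1 (FDR = 0.107) or 2 (FDR = 0.171) and without ZDF placebo serum 1 (FDR = 0.194).

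In the remaining comparisons between 2 groups of sera only rno-miR-133a-3p and, in some, rno-miR-133b-3p had enough reads to be tested, and 0 were called. Between ZDF and WT rats under PTH 0% of 158 miRNAs were called (5 at an unadjusted p under 0.05), and the log2FC of rno-miR-133a-3p was −0.87 (SE 0.97, edgeR FDR = 0.896). Under anti-sclerostin 0% of 161 were called (11 at an unadjusted p under 0.05), and it was −0.35 (SE 1.13, edgeR FDR = 0.996). PTH against placebo called 0% of 170 in WT rats (2 at an unadjusted p under 0.05) and 0% of 154 in ZDF rats (4 at an unadjusted p under 0.05). Rno-miR-133a-3p differed there by −0.05 (SE 0.95, edgeR FDR = 0.992) and by 0.81 (SE 0.77, edgeR FDR = 0.993).

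Anti-sclerostin against placebo called 0% of 171 in WT sera (18 at an unadjusted p under 0.05) and 1.27% of 158 in ZDF sera. For rno-miR-133a-3p the log2FC was −1.05 (SE 0.72, edgeR FDR = 0.541) in WT and 0.19 (SE 1.05, edgeR FDR = 0.939) in ZDF rats. Insulin against placebo called 26.5% of 151 miRNAs in ZDF sera, yet rno-miR-133a-3p differed by −0.26 (SE 0.56, edgeR FDR = 0.782). In all of these comparisons 0 members were called by edgeR and 0 had an unadjusted p under 0.05, and DESeq2 called 0 except for rno-miR-1b under insulin. With the study's independent filtering, which keeps miRNAs of fewer reads, rno-miR-1b was called lower under insulin (FDR = 0.0226) and under anti-sclerostin in both genotypes (FDR = 0.0225), as were rno-miR-133a-3p, rno-miR-208b-3p and rno-miR-499-5p under anti-sclerostin in WT and rno-miR-1-3p and rno-miR-208b-3p in ZDF rats. Each treatment was set against the same placebo sera of its genotype.

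ZDF sera held few reads of rno-miR-1b. It had 12, 1, 20, 4 and 3 reads under placebo, 0, 1, 3 and 1 under insulin and 3, 0, 0 and 0 under anti-sclerostin. Both treated groups lay at 3 reads or fewer in all sera, so no fold change is given. Whether the treatment response of the members differed between the genotypes was tested over 182 miRNAs for PTH and 189 for anti-sclerostin, with 0% called in each (8 and 4 at an unadjusted p under 0.05, DESeq2 0 members). For rno-miR-133a-3p the difference in response was 0.69 (SE 1.39, edgeR FDR = 0.969) and 1.26 (SE 1.44, edgeR FDR = 0.876).

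Of the members, rno-miR-133b-3p and rno-miR-1b were compared with rno-miR-133a-3p between sera of the same group. Over 32 sera rno-miR-133b-3p followed rno-miR-133a-3p with r = 0.866 (permutation p = 1e-05, the smallest 100000 draws can give) and rho = 0.883 (permutation p = 1e-05), and r was 0.825 without the 2 farthest sera. Rno-miR-1b, which has another seed, followed rno-miR-133a-3p with r = 0.667 (permutation p = 7.8e-04) and rho = 0.711 (permutation p = 7e-05), and r was 0.644 without the 2 farthest. Most sera had fewer than 10 reads of rno-miR-1b or rno-miR-133b-3p. The miRNAs outside the set most like rno-miR-133a-3p in serum by rho were rno-miR-100-5p (0.886), rno-miR-99a-5p (0.836), rno-miR-101a-3p (0.817), rno-miR-27b-3p (0.807) and rno-miR-125a-5p (0.8002). All of them lay above rno-miR-1b, and rno-miR-100-5p also lay above rno-miR-133b-3p.

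**Figure D5:**
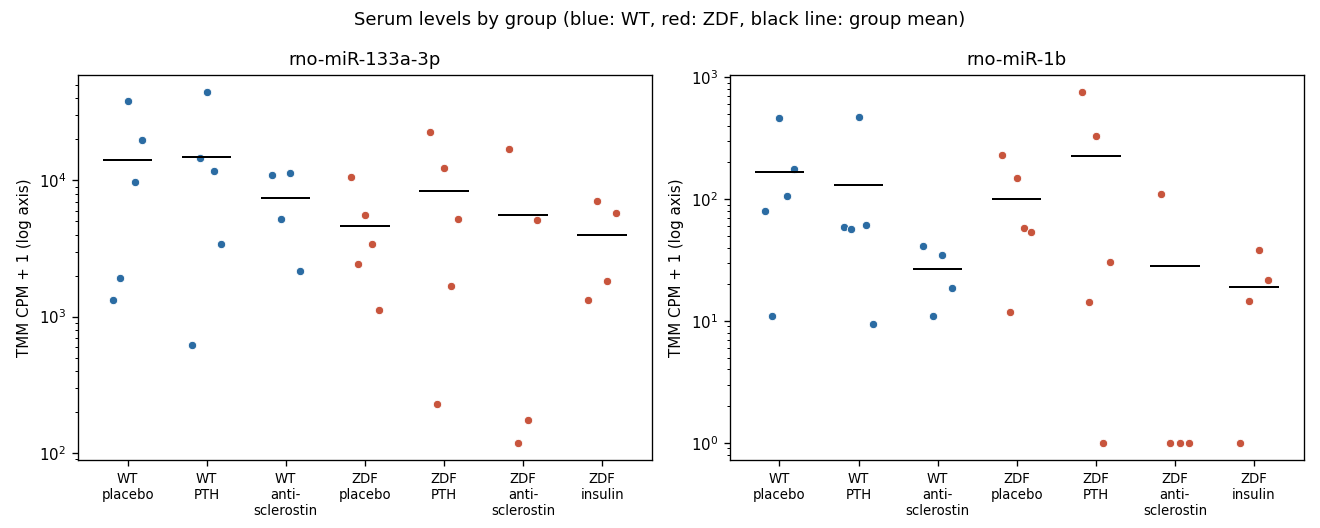
Serum levels of rno-miR-133a-3p (left) and rno-miR-1b (right) in the 7 serum groups, as TMM CPM plus 1 on a log axis, with 1 point per library, WT in blue, ZDF in red and the group mean as a black line. Points of rno-miR-133a-3p spread from 117 to 44371 CPM and all groups overlap, and rno-miR-1b lies at 0 CPM in 3 of 4 ZDF anti-sclerostin sera.

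The relatives of the members in muscle gave no further calls between bone groups. Of 8 opposite arms and miR-208a arms, 2 could be tested in bone and 0 were called by edgeR in the 4 bone comparisons. Of 7 other miRNAs known in striated muscle but not restricted to it, 6 were in the files, 5 could be tested in bone and 0 were called. Their median log2FC was 0.25, −0.11, 0.29 and 0.11 in the 4 bone comparisons, in the order used above. Between ZDF and WT bones under placebo, rno-miR-378a-3p, which lies in the gene of a coactivator of energy metabolism, had a log2FC of 0.79 (edgeR FDR = 0.274).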

How the data were processed

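RNA of 100 µl of serum or of ground ulna bone was made into small RNA libraries with the RealSeq-Biofluids kit. The authors trimmed reads with cutadapt, dropped those under 17 nt and aligned the rest, by bowtie and miRDeep2, to Rnor 6.0 (up to 2 mismatches) and then to rat miRBase (up to 1 mismatch). They deposited the count of reads on each mature miRNA per library, without normalization, beside RPM relative to the library's whole read number, which gave the library totals. A second deposited RPM column, relative to miRNA reads, was not used. Spike-in controls were left out of the miRNA counts.

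Libraries were grouped by the labelled genotype, treatment and tissue, and replicates were numbered in accession order. Every sample title begins with ZDF, also those of samples labelled WT, and the numbers of WT and ZDF animals in the study's text differ from the labels, which were followed. The 82 pairs of libraries of 1 group differed by more than counting noise (lowest chi-squared per degree of freedom 12.7). Groups were compared 2 at a time in R 4.3.3 with edgeR 4.0.16 (quasi-likelihood test, legacy = TRUE, after filterByExpr with a minimum count of 10, and TMM). The response to a treatment was compared between genotypes by an interaction term. FDR is the Benjamini-Hochberg adjusted p over all miRNAs tested, called under 0.2, and the SE is the log2FC divided by the square root of F. filterByExpr took the place of the study's independent filtering. In an earlier simulation without any change, fits that kept all miRNAs gave calls far more often. Single miRNAs were also compared by two-sided exact permutation of log2(CPM + 1), where 4 against 4 allow p = 0.0286 and 5 against 5 or 4 against 5 allow 0.00794 at the lowest. Correlations used 100000 permutations within groups. MiRNAs that never exceeded 3 reads in a group got no fold change. The edgeR script was tested on simulated data.

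The alternatives were RLE size factors, totals of miRNA reads or of all library reads, no filter beyond 1 read, independent filtering (50 quantiles up to 0.95), DESeq2 1.42.0, 1 fit over the groups of a tissue, legacy = FALSE, robust = TRUE, pseudocounts of 0.5 and 5, and each library left out in turn. The fits without both bones of the largest rno-miR-133a-3p share, the ratio tests, and the correlations with depth and with rno-miR-133a-3p were added after the data were seen. The members and the lists were chosen with earlier results of these data known. All 7 members were reported in every bone comparison, and in serum those that could be tested. Others were named from lists of opposite arms, of other muscle miRNAs and of the cell markers given beside a result, and as the 5 miRNAs of highest Spearman's rho to a member among those with a median of at least 10 reads.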

Additional observations from a re-analysis of the deposited data

Results flagged for a closer look

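Each member was checked within each group of 4 or 5 libraries. Of 75 such sets of values, 8 held a library far from the others by Dixon's test. For normally distributed values the test flags about 1 set in 20 by chance. The sets share libraries and are not independent. In bone, ZDF placebo replicate 2 held 444337 CPM of rno-miR-133a-3p, where the others of its group held 70998 to 92522, and 7944 CPM of rno-miR-133b-3p, where the others held 944 to 1176. WT PTH bone replicate 2 held 8104 CPM of rno-miR-1-3p (others 1529 to 2024), and WT placebo bone replicate 4 held 241 CPM of rno-miR-499-5p (others 110.3 to 119). In serum, WT anti-sclerostin replicate 4 had 0 CPM of rno-miR-133b-3p (others 94.7 to 171). The remaining values rest on 1 to 3 reads against 0 in the other sera of the group, namely 6.70 CPM of rno-miR-206-3p in WT anti-sclerostin replicate 3, 108 CPM of rno-miR-1b in ZDF anti-sclerostin replicate 1 and 38.3 CPM of rno-miR-206-3p in ZDF placebo replicate 1.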

How the results depend on the processing

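Counts of members called moved with the filter, the scale, the fit and single libraries, and no called value reversed. For ZDF against WT under placebo in bone, the 3 calls became 0 with all library reads, no filter beyond 1 read, all groups of the tissue or robust = TRUE, and 0 to 4 with 1 library left out. For ZDF against WT under PTH in bone, 1 call became 4 with all library reads and 2 with no filter, independent filtering or DESeq2 (1 to 2 with 1 library left out). For PTH in WT bone, 1 call became 2 with RLE size factors, total miRNA reads, all library reads, all groups of the tissue, legacy = FALSE or robust = TRUE, and 3 with no filter, independent filtering or DESeq2 (0 to 4 with 1 library left out). For PTH in ZDF bone the count was 0 to 1 with 1 library left out. The difference between genotypes in the response of bone to PTH gave 1 call without both bones of the largest rno-miR-133a-3p share and 0 to 1 with 1 library left out. In serum, 0 calls for ZDF against WT under placebo became 2 with all library reads, 3 with no filter or independent filtering and 1 with DESeq2 (0 to 1 with 1 library left out). Anti-sclerostin in serum gave 3 (no filter) and 4 (independent filtering) calls in WT and 2 and 3 in ZDF rats, and insulin 1 with no filter, independent filtering or DESeq2, in place of 0. Bone against serum gave 5 to 7 calls in WT and 6 to 7 in ZDF rats with 1 library left out, and 7 in WT rats with all library reads. In serum the calls that no filter and independent filtering added for the treatments rest, apart from rno-miR-133a-3p under anti-sclerostin in WT rats, on members with 3 reads or fewer in most treated libraries. The scale by all library reads moved the median of all miRNAs by −0.25 and 1.02 (ZDF against WT bone, placebo and PTH), −1.23 (PTH, WT bone) and −0.87 (ZDF against WT serum, placebo). The causes were not tested. No paired analysis was possible because the replicate numbers follow accession order and the labels tie no libraries together. The depth of serum limits every member but rno-miR-133a-3p.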

Other observations

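Of the list of other miRNAs known in striated muscle, which are not restricted to it, some were called in serum. Under insulin, rno-miR-486, which is also abundant in erythrocytes, rose by 0.85 on the log2 scale (SE 0.32, edgeR FDR = 0.120) and rno-miR-22-3p fell by 0.66 (SE 0.31, edgeR FDR = 0.188) in ZDF sera, the 2 of 4 tested miRNAs of that list that were called, where 26.5% of all miRNAs tested were called. In the same sera 3 of 3 erythrocyte miRNAs were called higher, among them rno-miR-451-5p (log2FC 2.33, edgeR FDR = 3.15e-04), and they summed to 122667.5 to 213735 CPM under insulin against 21911 to 53579 CPM under placebo. Their part in the rise of rno-miR-486 was not tested. Between bone and serum of placebo-treated rats, rno-miR-486 was lower in bone (log2FC −4.43 in WT and −4.36 in ZDF rats), opposite to the members, while rno-miR-378a-3p was higher in bone (log2FC 1.29 and 1.77).

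The miRNAs outside the set most like rno-miR-133a-3p in bone, by Spearman's rho of deviations over 16 libraries, were rno-miR-484 (0.785), rno-miR-378a-5p (0.779), rno-miR-423-3p (0.744), rno-miR-128-3p (0.741) and rno-miR-204-5p (0.738), none of which was among the 5 most like rno-miR-1-3p in bone. In serum those most like rno-miR-1-3p were rno-miR-100-5p (0.849), rno-miR-99a-5p (0.841), rno-miR-27b-3p (0.784), rno-miR-152-3p (0.747) and rno-miR-30a-3p (0.743). These are descriptions over libraries that share depth and scaling.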
